A study of Mus musculus with 10 samples.

Results

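Hypoxia response genes other than those of glycolysis were followed in mammary tumors of lovastatin-treated and control mice. The genes were a fixed list of 37, split by role into 8 that sense oxygen or form the hypoxia-inducible factor (HIF) and 29 targets of HIF. The list was chosen with earlier results of these data known. Each was read by 1 probe set, the one annotated to that gene alone with the highest mean over the 10 arrays. By this rule 35 of the 37 genes were measured (all 8 factors and sensors, 27 of the 29 targets), out of 18193 genes on the arrays.

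The tumors arose in female FVB/N-Tg(MMTVneu) mice (Tg-neu), in which the MMTV promoter drives the neu oncogene in the mammary gland. From the first palpable tumor on, mice received intraperitoneal lovastatin (Lov) at 10 mg/kg, 3 times per week for 6 weeks, or the ethanol vehicle (Vhcl), and 5 tumors of each group were analyzed. Lovastatin is a statin, which blocks HMG-CoA reductase and with it the synthesis of mevalonate. RNA of 1 whole tumor was hybridized to each Affymetrix mouse array, and the values are log2 signals after Robust Multi-array Analysis (RMA), so a difference of 1 is a 2-fold change. Whole tumors hold tumor cells, stroma, vessels and leukocytes, and fewer cells of a type and less RNA per cell cannot be told apart. The epithelial markers Epcam, Krt8, Krt18, Krt19, Cdh1, Erbb2, Elf5 and Cldn3 averaged 10.01 to 10.29 in the Lov tumors and 10.17 to 10.60 in the Vhcl tumors, and 0 of the 8 passed an unadjusted p of 0.05 by limma. Lov A19 lay apart from the other Lov tumors for many of the hypoxia genes. The mean signal of salivary gland transcripts was highest in Vhcl AB11 and Vhcl A59, followed by Lov A19. The main counts are also given without A19.

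When oxygen is plentiful, the prolyl hydroxylases of the Egln family modify the HIF alpha subunits, and the von Hippel-Lindau protein (Vhl) marks them for degradation. When oxygen is scarce, the alpha subunits persist, pair with Arnt and bind short DNA elements near genes of mitophagy, energy saving, collagen maturation, vessel growth, iron uptake and glycogen storage. Control of the alpha subunits therefore lies largely at the protein, which an array of RNA does not read, while the transcripts of their targets are a common readout of low oxygen in solid tumors.

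The core of the element that HIF binds reads ACGTG or GCGTG. RefSeq promoter windows (GRCm38.p6, 250 bases before to 50 after the start site) were at hand for 27 of the 35 measured genes. The windows below are examples, from 4 of the 9 genes with a window that were lower in Lov tumors (Bnip3, Fam162a, Ero1a and Gys1). Egln3, a hydroxylase gene whose signals in the groups were intermingled, is shown beside them. They lie at chr7:138909457-138909756 (Bnip3), chr16:36071512-36071811 (Fam162a), chr14:45318523-45318822 (Ero1a) and chr12:54203825-54204124 (Egln3) on the minus strand and at chr7:45434589-45434888 (Gys1) on the plus strand. Each runs 5′ to 3′ on the strand of its gene. Capitals mark ACGTG and GCGTG on that strand and their reverse complements CACGT and CACGC, and overlapping matches run together.
Bnip3: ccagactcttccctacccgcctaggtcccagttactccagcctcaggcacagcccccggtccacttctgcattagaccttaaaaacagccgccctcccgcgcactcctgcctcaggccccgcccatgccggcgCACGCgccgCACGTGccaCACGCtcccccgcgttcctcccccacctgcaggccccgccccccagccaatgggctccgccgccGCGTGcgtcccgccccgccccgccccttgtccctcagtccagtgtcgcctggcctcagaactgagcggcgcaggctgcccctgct
Fam162a: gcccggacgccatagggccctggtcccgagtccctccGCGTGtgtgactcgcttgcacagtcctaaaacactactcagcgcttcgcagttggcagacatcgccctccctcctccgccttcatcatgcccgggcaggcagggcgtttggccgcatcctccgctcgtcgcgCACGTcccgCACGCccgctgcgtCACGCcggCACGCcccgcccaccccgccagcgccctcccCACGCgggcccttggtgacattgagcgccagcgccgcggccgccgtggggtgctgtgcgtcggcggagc
Ero1a: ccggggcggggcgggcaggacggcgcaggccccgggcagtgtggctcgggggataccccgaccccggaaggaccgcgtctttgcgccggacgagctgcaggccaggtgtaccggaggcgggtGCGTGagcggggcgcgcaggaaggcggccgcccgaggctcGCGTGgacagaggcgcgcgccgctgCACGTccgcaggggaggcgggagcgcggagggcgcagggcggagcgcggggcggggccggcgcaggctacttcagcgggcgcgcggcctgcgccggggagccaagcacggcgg
Gys1: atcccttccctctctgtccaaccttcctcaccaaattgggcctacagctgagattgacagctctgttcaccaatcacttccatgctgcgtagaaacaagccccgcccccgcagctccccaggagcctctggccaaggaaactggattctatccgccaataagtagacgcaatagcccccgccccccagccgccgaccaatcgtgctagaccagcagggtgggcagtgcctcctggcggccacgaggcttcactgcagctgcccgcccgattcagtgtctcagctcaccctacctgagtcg
Egln3: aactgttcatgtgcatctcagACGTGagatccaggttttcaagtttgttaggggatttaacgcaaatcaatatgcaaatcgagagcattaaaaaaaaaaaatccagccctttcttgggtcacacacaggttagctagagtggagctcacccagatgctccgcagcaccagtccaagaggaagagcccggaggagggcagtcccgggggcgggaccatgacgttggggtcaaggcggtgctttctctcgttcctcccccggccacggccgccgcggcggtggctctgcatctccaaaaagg
The Fam162a window held 6 matches, that of Bnip3 5, that of Ero1a 3, that of Egln3 1 and that of Gys1 0. Of the lower genes not shown, Higd1a and Ak4 had at most 3 in a window, Egln1 and Ddit4 2 and Kdm3a 1. In Bnip3 a match to ACGTG on each strand overlaps to form the palindrome CACGTG. Where a gene had several windows, the one with the most matches counted. At least 1 match was found for 22 of the 27 genes (81.5%), against 46.7% of the 27025 genes with a window. ACGTG was found for 17 (63.0%), against 21.8%. The windows of these genes also held more CpG dinucleotides, a median of 26 against 8 over all genes, and both motifs contain a CpG. Among the genes of the list called lower below, 8 of 9 had a match (88.9%), and among the others 14 of 18 (77.8%). A match is a run of letters and does not show binding.

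Most HIF targets had a lower mean signal in Lov than in Vhcl tumors, but only 10 of 27 passed an unadjusted p of 0.05 (limma), and most factor and sensor genes had small differences. Of the 27 measured targets, 26 had a negative log2 difference (Lov minus Vhcl), with a median of -0.49, against 3 of the 8 factors and sensors, with a median of 0.02. Over all 18193 genes 49.3% were negative and the median was 0.002. At that threshold 10 targets and 1 sensor were lower and 0 genes of the list were higher, where 2.75% of all genes were lower and 3.5% higher. A difference of 2-fold or more downward was seen for 6 targets, against 0.577% of all genes, and 4 of these (Ndrg1, Ak4, Bnip3 and Ero1a) also had an unadjusted p under 0.02, against 0.264% of all genes. These 4 are also in the table of lower genes that the study drew from the same arrays, so they are not independent evidence of direction. Without them 6 of 23 targets were lower with a median of -0.40. These 23 were read on the same arrays and are not independent evidence either.
No gene of the list passed Benjamini-Hochberg adjustment over the 45037 probe sets tested (lowest adjusted p = 0.879 by limma, for Ndrg1), and neither did any other gene at an adjusted p of 0.05 (the lowest was 0.369). The calls named here are therefore unadjusted ones, read against their share among all genes. For 0 of the 35 genes did every Lov tumor lie below every Vhcl tumor on the probe set used. This separation was found for 0.346% of all genes. It was present on another probe set of Ndrg1 (Lov up to 7.34, Vhcl from 7.37) and of Gys1 (Lov up to 6.07, Vhcl from 6.09).

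**Figure D1:**
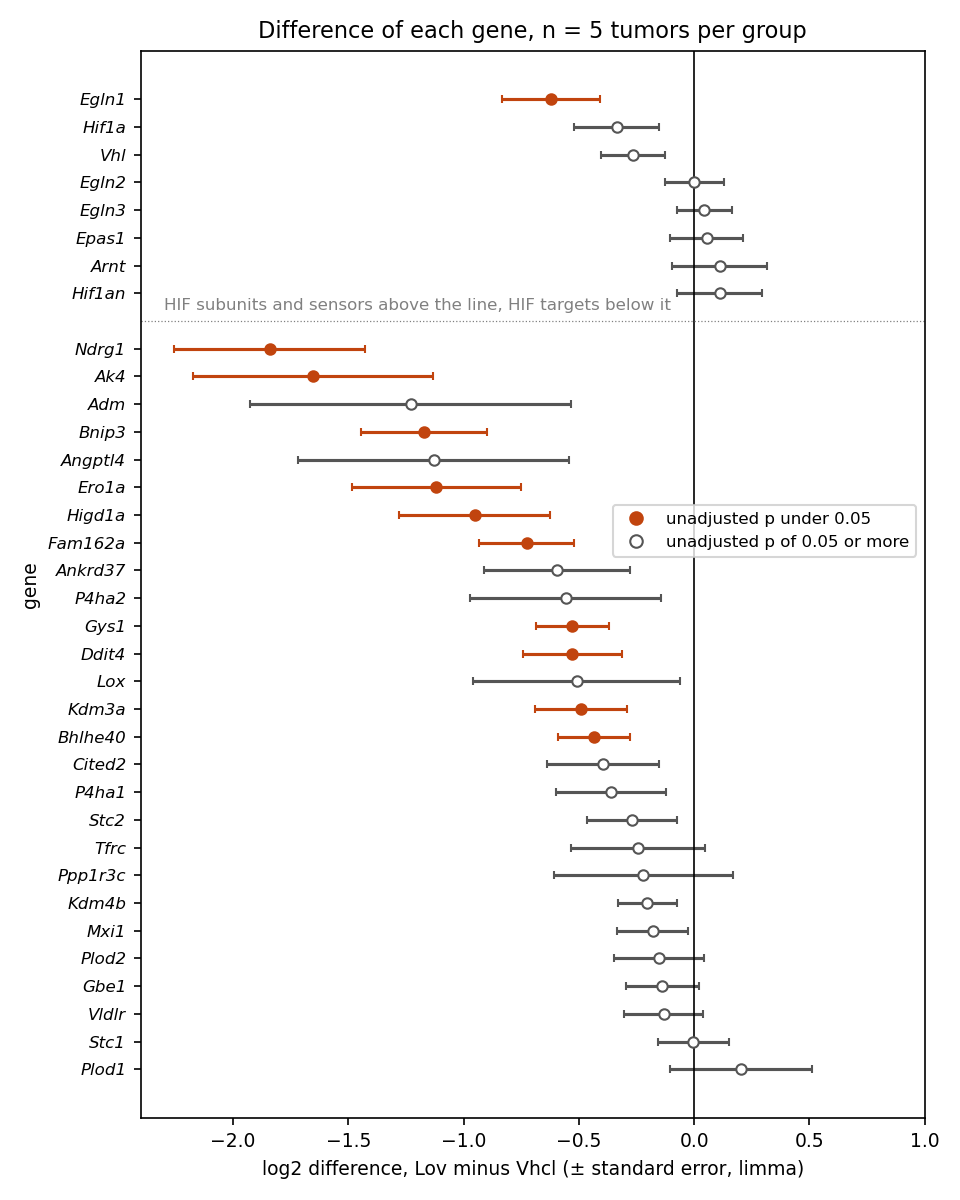
Log2 difference between Lov and Vhcl tumors (x axis, Lov minus Vhcl, with the standard error from limma as bars, n = 5 tumors per group) for each of 35 genes (y axis). HIF subunits and sensors stand above the dotted line and HIF targets below it, and filled points passed an unadjusted p under 0.05. The targets lie left of 0 except Plod1, with Ndrg1 at -1.84 the farthest, while 5 of the 8 factors and sensors lie between 0.00 and 0.11.

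The tumors are given in the order A19, A48, A50, A55 and AB10 for Lov and A45, A49, A54, A59 and AB11 for Vhcl throughout. Hif1a, the oxygen-regulated alpha subunit found in most cells, had log2 signals of 10.03, 9.95, 9.83, 9.88 and 9.48 in Lov tumors and 10.30, 9.96, 9.81, 10.82 and 9.96 in Vhcl tumors. The groups overlapped, with Vhcl A59 highest and Lov AB10 lowest. Its log2 difference was -0.34 (standard error 0.18; limma, unadjusted p = 0.0933; exact permutation test, 2-sided p = 0.167). The 4 probe sets of Hif1a ran from -0.34 to 0.20. The positive value came from a weak probe set, with a mean signal of 4.19 against a median of 5.02 over all probe sets.
Epas1, the second alpha subunit, prominent in vessels, had 8.49, 7.97, 7.88, 8.39 and 7.83 in Lov tumors and 7.76, 8.34, 8.21, 8.09 and 7.89 in Vhcl tumors, and the ranges lay almost on top of each other. The difference was 0.05 (standard error 0.16; limma, unadjusted p = 0.741). Arnt, the partner that is not regulated by oxygen, had 7.72, 7.84, 7.70, 7.75 and 7.41 in Lov tumors and 7.56, 8.03, 7.82, 6.75 and 7.71 in Vhcl tumors. Only Vhcl A59 stood low, and the difference was 0.11 (standard error 0.20; limma, unadjusted p = 0.601).

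Egln1, the main hydroxylase that marks HIF for degradation and itself induced by HIF, was the 1 sensor below the threshold. Its signals were 8.72, 8.11, 8.08, 7.96 and 7.54 in Lov tumors and 9.05, 8.18, 8.73, 8.92 and 8.63 in Vhcl tumors. All Lov tumors but A19 lay below all Vhcl tumors. The log2 difference was -0.62 (standard error 0.21; limma, unadjusted p = 0.0132 and adjusted p = 0.926; exact permutation test, 2-sided p = 0.0317), and a second probe set gave -0.63. Egln3, also induced by HIF in many cells, had 11.54, 11.38, 11.70, 11.43 and 11.28 in Lov tumors and 11.36, 11.11, 11.50, 11.63 and 11.51 in Vhcl tumors. The groups were intermingled, with a difference of 0.04 (standard error 0.12; limma, unadjusted p = 0.716).
Egln2, the third hydroxylase, had 8.37, 8.87, 8.86, 8.70 and 8.69 in Lov tumors and 8.89, 8.73, 8.90, 8.52 and 8.45 in Vhcl tumors. Both groups averaged 8.70, with SDs of 0.20 for Lov and 0.21 for Vhcl (n = 5 each). Hif1an, an asparagine hydroxylase that blocks the activation domain of HIF, had 6.80, 7.31, 7.37, 7.24 and 6.73 in Lov tumors and 6.84, 6.43, 7.18, 7.18 and 7.27 in Vhcl tumors, a difference of 0.11 (standard error 0.19; limma, unadjusted p = 0.563). The groups overlapped, with Lov A50 highest and Vhcl A49 lowest. Vhl, the substrate receptor of the ubiquitin ligase, had 7.11, 6.92, 6.82, 6.69 and 6.53 in Lov tumors and 7.01, 6.84, 6.99, 7.47 and 7.08 in Vhcl tumors. Its difference of -0.26 (standard error 0.14) did not pass by limma (unadjusted p = 0.0828). It was -0.34 without Lov A19 and -0.18 with a covariate for RNA degradation, the 3′ minus 5′ signal of beta-actin. A second probe set of Vhl gave -0.02 (limma, unadjusted p = 0.928).

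Among the targets, 6 of the 6 measured mitochondrial and stress-response genes were called lower, with a median log2 difference of -1.06. Over all genes 2.75% were called lower, the share against which this count and those of the other roles below stand. Of these, Bnip3, Ak4 and Ndrg1 are in the study's own table. Bnip3, a mitochondrial outer membrane protein that recruits the mitophagy machinery, had 10.34, 9.35, 9.03, 8.77 and 8.70 in Lov tumors and 10.53, 10.16, 10.34, 10.78 and 10.25 in Vhcl tumors. The Vhcl tumors lay within a narrow band at the top, Lov A19 fell inside it and the other Lov tumors lay below it. The log2 difference of -1.17 had a standard error of 0.27 (limma, unadjusted p = 0.00112 and adjusted p = 0.919; exact permutation test, 2-sided p = 0.0317). Without Lov A19 it was -1.45. Its window, printed above, is that with the CACGTG palindrome.
Fam162a, a mitochondrial membrane protein induced by low oxygen, repeated this picture at a smaller size, with 10.11, 9.33, 9.28, 9.19 and 8.99 in Lov tumors and 10.00, 9.75, 10.16, 10.57 and 10.05 in Vhcl tumors. Lov A19 lay in the middle of the Vhcl values, and the other Lov tumors below the lowest of them. The difference was -0.73 (standard error 0.21; limma, unadjusted p = 0.00445 and adjusted p = 0.919). A second probe set of Fam162a, with a mean signal of only 4.7, gave -0.11. Higd1a, a protein of the inner mitochondrial membrane that associates with the respiratory chain, had 10.19, 8.64, 8.73, 9.09 and 8.52 in Lov tumors and 9.93, 9.38, 9.77, 10.82 and 10.03 in Vhcl tumors. Again 4 Lov tumors lay below all Vhcl tumors, and the difference was -0.95 (standard error 0.33; limma, unadjusted p = 0.0135 and adjusted p = 0.926). This call was lost with beta-actin as a covariate (-0.68, limma, unadjusted p = 0.0582). The other probe sets of Higd1a gave -0.56 (limma, unadjusted p = 0.118; mean signal 5.89) and -0.44 (limma, unadjusted p = 0.0701; mean signal 4.34). On these Lov A55 lay just above Vhcl A49.
Ak4, an adenylate kinase of the mitochondrial matrix, had the largest SD over the Lov tumors among the genes called lower, with 8.39, 6.46, 5.86, 5.46 and 5.27 in Lov tumors and 6.97, 7.87, 8.09, 8.49 and 8.28 in Vhcl tumors. Lov A19 stood far above the other Lov tumors and exceeded all Vhcl tumors but A59. The difference was -1.65 (standard error 0.52; limma, unadjusted p = 0.00837 and adjusted p = 0.919), and the 5 probe sets of Ak4 ran from -1.65 to 0.11. The probe set at 0.11 had a mean signal of only 3.51, and another, at -0.03, had 5.11. Without Lov A19 the probe set used here gave -2.18.
Ndrg1, a cytoplasmic protein induced by hypoxia and other stress, had the largest difference of the list. Its signals were 9.09, 8.22, 7.72, 7.64 and 6.55 in Lov tumors and 8.94, 10.33, 9.70, 10.18 and 9.28 in Vhcl tumors, and only Lov A19 reached above the lowest Vhcl tumor, A45. The log2 difference was -1.84 (standard error 0.41; limma, unadjusted p = 0.000842 and adjusted p = 0.879; exact permutation test, 2-sided p = 0.0159), a 3.59-fold lower signal. All 5 probe sets of Ndrg1 were negative, at -1.90 to -1.24. Ddit4, an inhibitor of mTOR signaling, had 8.47, 7.78, 7.42, 7.28 and 7.48 in Lov tumors and 8.31, 8.13, 8.35, 8.50 and 7.78 in Vhcl tumors. Lov A19 was the second highest of the 10 tumors. The difference was -0.53 (standard error 0.22; limma, unadjusted p = 0.0313), and this call was lost in 8 of 21 alternative settings, with a p of up to 0.125.
Bnip3l, the paralog of Bnip3, had no probe set of its own, since its 3 probe sets are annotated to the pseudogene Bnip3l-ps as well. They gave -0.35, -0.50 and -0.45 and are not counted here.

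**Figure D2:**
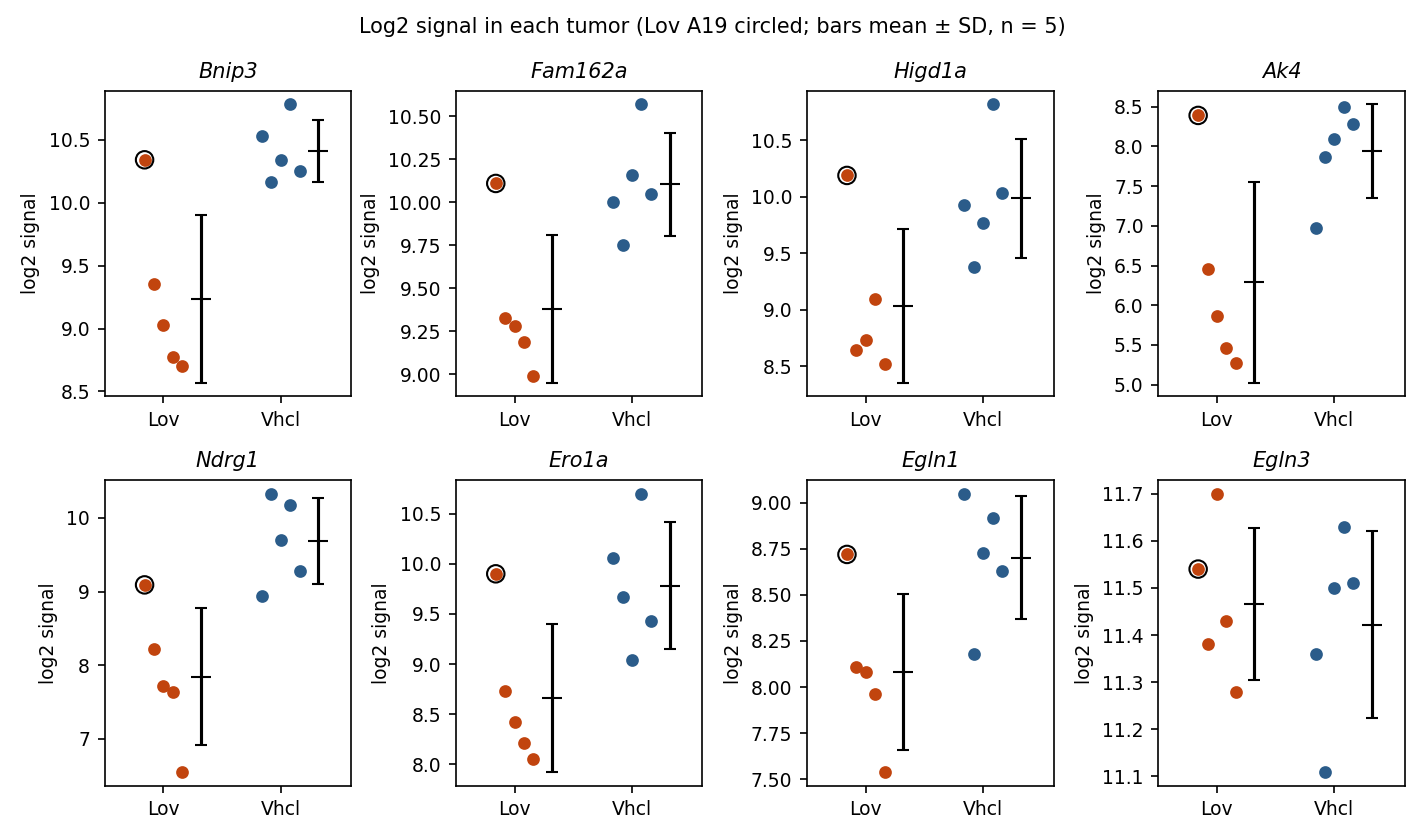
Log2 signal (y axis) of 8 genes in each of 5 Lov and 5 Vhcl tumors (x axis), 1 point per tumor; bars are the group mean ± SD and Lov A19 is circled. For Bnip3, Fam162a, Higd1a, Ak4, Ndrg1, Ero1a and Egln1 the other 4 Lov tumors lie below every Vhcl tumor and Lov A19 lies among the Vhcl tumors, whereas the groups mix for Egln3.

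Among the genes of transcription and chromatin 2 of 6 were called lower and 4 did not pass, with a median difference of -0.42. Bhlhe40, a transcriptional repressor, had 10.15, 10.44, 10.10, 9.84 and 9.84 in Lov tumors and 10.98, 10.51, 10.41, 10.39 and 10.25 in Vhcl tumors. Here Lov A48, not A19, was the highest Lov tumor. The difference was -0.43 (standard error 0.16; limma, unadjusted p = 0.0171 and adjusted p = 0.928; exact permutation test, 2-sided p = 0.0317).
Kdm3a, a histone demethylase, had 9.14, 9.28, 8.76, 8.69 and 8.43 in Lov tumors and 9.36, 9.64, 9.40, 9.62 and 8.74 in Vhcl tumors. Vhcl AB11 lay among the Lov tumors. The difference of -0.49 (standard error 0.20; limma, unadjusted p = 0.0302) lost its call in 9 of 21 alternative settings. The others did not pass: Ankrd37, an ankyrin repeat protein, at -0.59 (Lov 5.28 ± 0.62, Vhcl 5.87 ± 0.55, SD, n = 5), Cited2, which competes with HIF for its coactivators, at -0.40, Kdm4b, a second histone demethylase, at -0.20 and Mxi1, an antagonist of MYC, at -0.18.

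Of the collagen and disulfide enzymes, 1 of 6 was called lower, and the median difference was -0.44. That gene was Ero1a, the oxidase that drives disulfide formation in the endoplasmic reticulum, with 9.90, 8.73, 8.42, 8.21 and 8.05 in Lov tumors and 10.06, 9.67, 9.04, 10.70 and 9.43 in Vhcl tumors. As for Bnip3, the 4 Lov tumors other than A19 lay below all Vhcl tumors. The difference was -1.12 (standard error 0.37; limma, unadjusted p = 0.0106 and adjusted p = 0.919), and its 3 probe sets ran from -1.82 to -1.12.
P4ha1 and P4ha2, catalytic subunits of the collagen prolyl hydroxylase, had differences of -0.36 and -0.56 that did not pass. For P4ha1 the Vhcl tumors were tightly grouped at 6.80 ± 0.07, against 6.44 ± 0.61 in Lov tumors (SD, n = 5 each), with Lov A19 above all of them at 7.45 and the other Lov tumors below all of them at 5.97 to 6.54. Without Lov A19 P4ha1 stood at -0.61 and P4ha2 at -0.91. With the beta-actin covariate P4ha1 stood at -0.24 and P4ha2 at -0.08 (limma, unadjusted p = 0.81).
Lox, which crosslinks collagen and elastin, stood at -0.51 with a standard error of 0.45 and ranged from 5.27 to 7.71 in Lov tumors and from 6.17 to 7.84 in Vhcl tumors. The lysyl hydroxylase genes did not pass either: Plod2 stood at -0.15, and Plod1, the 1 target with a positive difference, at 0.20 (standard error 0.31). Loxl2, related to Lox, had only probe sets shared with Gm21451, which gave -0.16 and 0.05.

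The secreted factors Adm and Angptl4 had large mean differences and a large spread, and 0 of 4 secreted factors passed on the probe set used. Adm, which encodes the vasodilator adrenomedullin, had 9.02, 5.81, 5.84, 6.02 and 5.44 in Lov tumors and 7.69, 6.52, 7.77, 9.47 and 6.83 in Vhcl tumors. The 4 lower Lov tumors lay below all Vhcl tumors and Lov A19 was the second highest of all 10, so that the difference of -1.23 had a standard error of 0.69 (limma, unadjusted p = 0.103). It was -1.88 without A19, and -0.57 with the beta-actin covariate (limma, unadjusted p = 0.396). A second probe set of Adm gave -1.30 (limma, unadjusted p = 0.0441 and adjusted p = 0.932; exact permutation test, 2-sided p = 0.0952). Angptl4, an inhibitor of lipoprotein lipase, averaged 6.52 ± 1.06 in Lov tumors and 7.65 ± 1.16 in Vhcl tumors (SD, n = 5 each; difference -1.13, limma, unadjusted p = 0.0796). A second probe set of Angptl4, with a mean signal of only 2.70, gave -0.03. The stanniocalcin genes Stc1 and Stc2 stood at 0.00 and -0.27.
The receptor genes had small differences, with Vldlr, a lipoprotein receptor, at -0.13 and Tfrc, the transferrin receptor for iron uptake, at -0.24. Gys1, the glycogen synthase of muscle and most other tissues, was the 1 of 3 glycogen genes called lower, with 7.71, 7.46, 7.56, 7.21 and 7.36 in Lov tumors and 7.69, 8.20, 8.13, 8.33 and 7.59 in Vhcl tumors. Lov A19 lay just above Vhcl A45 and AB11, and the other Lov tumors below every Vhcl tumor. The difference was -0.53 (standard error 0.16; limma, unadjusted p = 0.00596 and adjusted p = 0.919; exact permutation test, 2-sided p = 0.0238), and a second probe set gave -0.49. Ppp1r3c, which targets a phosphatase to glycogen, and Gbe1, the branching enzyme, stood at -0.22 and -0.14 and did not pass.

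**Figure D3:**
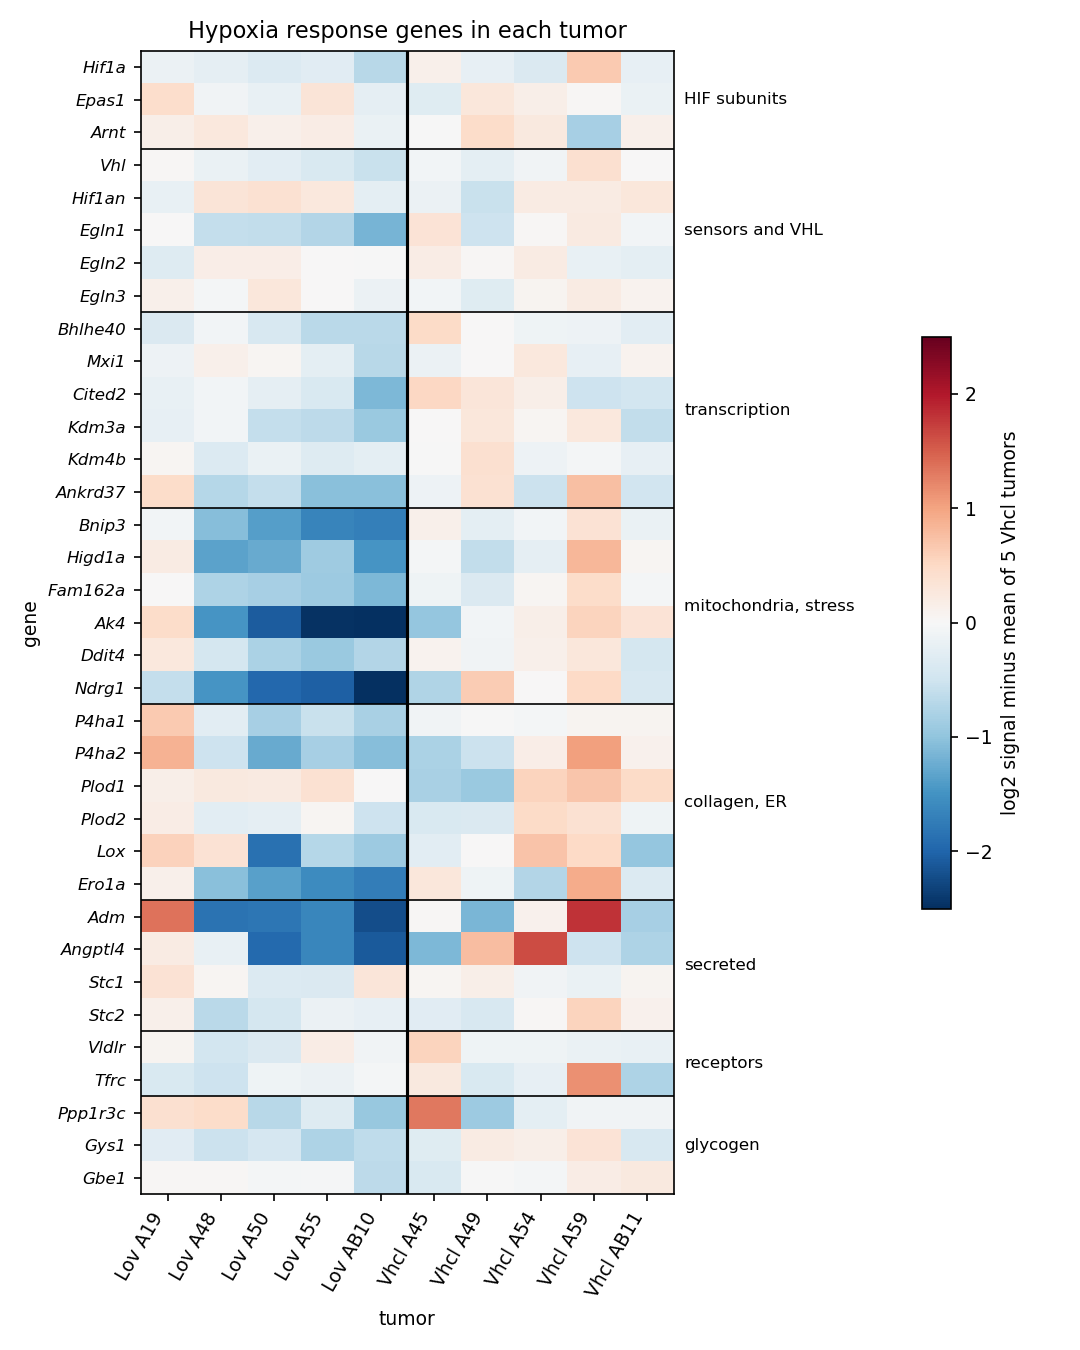
Log2 signal of each of 35 genes (rows, grouped by role) in each tumor (columns, 5 Lov then 5 Vhcl), shown as the deviation from the mean of the Vhcl tumors (color scale, log2 units; values past the scale end take its end color). The mitochondrial and stress genes and Ero1a are blue in Lov A48, A50, A55 and AB10 and paler, white or red in Lov A19, and the factors and sensors are pale in nearly all tumors.

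Read tumor by tumor, the lower signals lay in 4 of the 5 Lov tumors. Lov AB10 was below all Vhcl tumors for 21 of the 27 targets, A50 and A55 for 18 each and A48 for 13, while A19 was for 1. Over all genes these shares were 19.6% for AB10, 13.4% for A50, 13.9% for A55, 15.4% for A48 and 11.7% for A19. The median deviation of the targets from the Vhcl mean was -0.91 in AB10, -0.67 in A55, -0.60 in A50 and -0.43 in A48, and 0.12 in A19. Lov A19 was the highest Lov tumor for 18 of the 27 targets, where it was so for 20.9% of all genes, above the Vhcl median for 18, against 49.8% of all genes, and within the Vhcl range for 24.
For 11 genes of the list (Egln1, Ankrd37, Bnip3, Higd1a, Fam162a, Ak4, Ndrg1, P4ha1, Ero1a, Adm and Gys1) the 4 Lov tumors other than A19 were all below all Vhcl tumors, where 1.29% of all genes were. Without A19, 17 genes of the list were called lower by limma and 0 were called higher, again at an unadjusted p under 0.05, against 3.68% and 4.02% of all genes. These were the 11 called with all tumors plus Vhl, Ankrd37, P4ha1, P4ha2, Adm and Angptl4, and the median of the targets was -0.59. A19 was singled out for its values on these same genes and the shares of all genes were not chosen in that way, so both counts describe the tumors and are no added support.
The Vhcl tumors also differed among themselves: A59 was the highest of all 10 tumors for 13 of the 27 targets, with a median deviation of 0.37, and AB11 had a median deviation of -0.19. The median over the 8 factors and sensors stayed between -0.24 and 0.03 in the Lov tumors and between -0.22 and 0.20 in the Vhcl tumors.

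**Figure D4:**
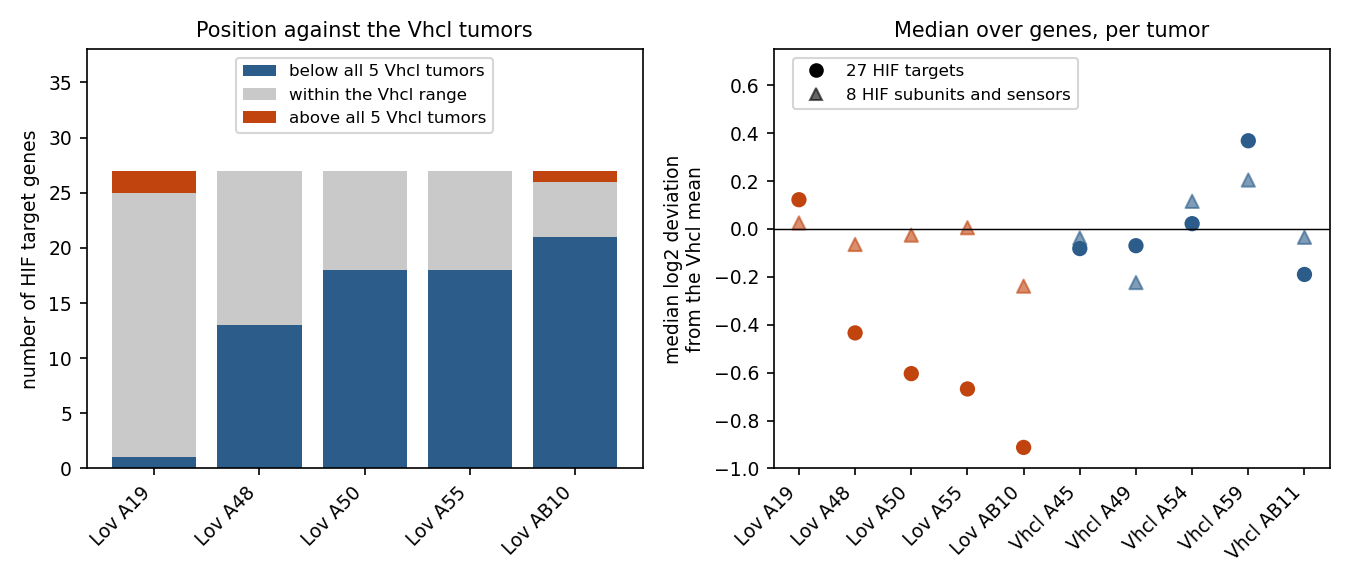
Left, number of the 27 HIF targets (y axis) whose signal in each Lov tumor (x axis) lay below, within or above the range of the 5 Vhcl tumors. Right, median log2 deviation from the Vhcl mean (y axis) over the 27 targets (circles) and over the 8 HIF subunits and sensors (triangles) in each of the 10 tumors (Lov, then Vhcl). Lov A19 has 24 targets within the Vhcl range and a median of 0.12, while the other Lov tumors have medians of -0.43 to -0.91.

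Other genes of the pathway were counted from lists that hold no member of the list above. Of 14 measured partners and turnover factors of HIF, among them coactivators, ubiquitin ligase subunits and chaperones, 0 were called in either direction by limma (unadjusted p under 0.05), and the median was 0.08. Of 23 other measured hypoxia-inducible genes, 8 were lower, against 2.75% of all genes, and 1 was higher, against 3.5%, with a median of -0.23. Without Lov A19 the counts were 11 lower and 0 higher. The 8 were Hk2 (-0.90), Pgk1 (-0.62), Ldha (-0.61) and Pdk1 (-0.51), enzymes of glucose use, Jmjd6 (-0.67), a JmjC-domain hydroxylase, Rora (-0.49), a nuclear receptor, Mif (-0.56), a cytokine, and Car12 (-0.37), a carbonic anhydrase. The 1 higher gene was Edn1, which encodes the vasoconstrictor endothelin, at 0.41 (standard error 0.17; exact permutation test, 2-sided p = 0.119).

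Markers of cell types and of RNA quality were read on the same arrays. At the unadjusted p under 0.05 by limma used for the counts below, 2.75% of all genes were lower and 3.5% higher. Of 5 proliferation genes measured, 2 were lower (Mki67 at -0.63 and Top2a at -0.43), and the log2 of their summed signal was 10.28 to 10.86 in Lov tumors and 10.62 to 11.62 in Vhcl tumors. Of 5 salivary gland transcripts, 2 were lower, with a summed signal of 5.94 to 8.75 in Lov tumors and 7.21 to 15.21 in Vhcl tumors. Their mean signal was highest in Vhcl AB11 (11.68) and Vhcl A59 (7.63), and Lov A19 (5.96) lay above the other Lov tumors (3.52 to 3.98), for 5 of 5 transcripts. For Prol1 and Dcpp1 the Lov tumors other than A19 lay below all Vhcl tumors. Among 8 macrophage genes 1 was lower (Itgam) and 1 higher (Csf1r), with sums of 11.00 to 11.72 in Lov tumors and 11.00 to 11.56 in Vhcl tumors, and in each of the neutrophil, T cell and adipocyte lists 1 gene passed (S100a9 lower, Cd3g higher and Fabp4 lower). Itgam (mean 3.51 in Lov and 3.84 in Vhcl tumors) and S100a9 (3.66 and 3.99) had weak signals, below the median of 5.02 over all probe sets. For 8 endothelial, 6 fibroblast, 6 pericyte and smooth muscle and 6 skeletal muscle genes the count was 0 in either direction. The fibroblast sum was 9.30 to 12.14 in Lov tumors and 10.38 to 11.97 in Vhcl tumors. The endothelial mean was 6.42 in Lov A19, 5.82 to 6.01 in the other Lov tumors and 5.72 to 6.08 in Vhcl tumors. All 6 skeletal muscle genes had a negative difference (median -0.93), and their mean was 8.18 in Lov A55 and 4.54 to 5.10 in the other Lov tumors, against 8.42 in Vhcl A59, 8.35 in A54, 5.90 in AB11, 4.74 in A45 and 4.36 in A49. RMA signals have no 0, so absence of a marker cannot be read from them. Degraded RNA raises the 3′ minus 5′ signal of beta-actin, and this value was 0.85 ± 0.20 in Lov tumors and 1.03 ± 0.24 in Vhcl tumors (SD, n = 5 each; exact permutation test, 2-sided p = 0.206), with 1.05 in Lov A19, 1.07 in Lov AB10 and the highest value, 1.35, in Vhcl A59. With it as a covariate the median of the targets was -0.36, and 2 rather than 4 genes passed the 2-fold threshold with its p under 0.02. The part of cell composition in the differences of the hypoxia genes was not tested.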

How the data were processed

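RNA of 10 whole mammary tumors, 5 Lov and 5 Vhcl, had been measured on 1 Affymetrix array each. The authors deposited log2 signals made by RMA with the affy package, per the labels (version not given in the sources used here). RMA brings all arrays to 1 distribution, so a change shared by most genes would not be seen. Groups came from the labels, which give 5 mice per group but do not say which tumor came from which mouse, so p-values measure the spread between these tumors; a free-text label calls the controls untreated.

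The 37 genes and all other lists were chosen with earlier results of these data known. Of 45101 probe sets, 64 controls were left out. The other 45037 were fitted with limma 3.58.1 in R 4.3.3 (Lov minus Vhcl, empirical Bayes, 2-sided, Benjamini-Hochberg over all); the fit was also tested on simulated data. In all, 34945 carried 1 gene symbol, 932 several and 9160 none. A gene was read by its single-gene probe set of highest mean signal, named through RefSeq (GRCm38.p6) symbols. Exact permutation tests went through the 252 ways to call 5 tumors Lov (smallest p = 0.00794). Values per tumor are given for all factors and sensors and for targets with an unadjusted p under 0.05, and other genes by means, ranges or counts. Arrays have no depth, and their number limits the precision.

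Alternatives were a trended robust prior, array weights, an ordinary t-test without moderation, centered arrays and further quantile normalization. Others were a covariate (tumor ID prefix, or the beta-actin 3′ to 5′ difference), averaging the probe sets of a gene and probe sets without shared-transcript suffixes. The rest were genes above the median signal, the list without genes of the study's table, and fits without some tumors. These left out each tumor in turn or the pair Lov A19 and Vhcl AB11.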

Additional observations from a re-analysis of the deposited data

Results flagged for a closer look

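In each group of 5 tumors, a tumor far from the rest was looked for in every measured gene of the list, and 3 of 70 groups had one, where chance gives about 1 in 20. Adm had a log2 signal of 9.02 in Lov A19, with the next Lov tumor at 6.02. Vldlr was at 10.23 in Vhcl A45, with the next Vhcl tumor at 9.57. Gbe1, the glycogen branching enzyme, was at 5.67 in Lov AB10, with the next Lov tumor at 6.27.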

How the results depend on the processing

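No paired analysis was possible because the labels number tumors individually and tie no Lov tumor to a Vhcl tumor. Leaving out 1 tumor at a time, the number of genes called lower was 9 to 17 (11 with all tumors; 17 without Lov A19), the number called higher 0 to 0, the number past 2-fold and p under 0.02 was 2 to 6 (4 with all tumors; 2 without Vhcl A59 and 2 without A50, A55 or AB10 of the Lov tumors), and the number with every Lov below every Vhcl tumor 0 to 11 (0 with all tumors; 11 without Lov A19). The median of the targets was -0.59 to -0.38 and that of the factors and sensors -0.07 to 0.06. Without Lov A19 and Vhcl AB11 together, 18 genes were called lower and 14 did not overlap. The shares of all genes were not counted for this setting, and groups overlap less readily with fewer tumors. A19 was also singled out on these same genes, so the counts of 18 and 14 are no added support. With the mean of all probe sets 1 did not overlap. The 2-fold count was 2 with an ordinary t-test without moderation and 2 with the beta-actin covariate. Apart from genes that the study had tabulated, 7 were called lower and 0 passed 2-fold with p under 0.02. The latter count was fixed beforehand, because the tabulated genes are the 4 that passed with all tumors. Adm (-1.23) and Angptl4 (-1.13) were more than 2-fold lower but without that p. The overlap count has no value with a covariate (tumor ID prefix or beta-actin), which changes no single signal. It was 1 without Lov A48, Vhcl A45 or Vhcl AB11.

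For single genes, 733 values over 35 genes gave 676 with direction and side of the threshold kept, 18 that lost the call, 19 that gained one and 20 that changed sign, all in genes not called. Some of the 676 could not differ from the main fit. All 35 genes lay above the median signal, and many already used a probe set without a shared-transcript suffix. The counts of alternative settings given for single genes include such repeats. With the beta-actin covariate Arnt was at -0.0803, Plod2 at 0.0101 and Stc1 at 0.0683. Without Lov A19 and Vhcl AB11 Epas1 was at -0.0825. Leaving out 1 tumor at a time, the difference changed sign for 9 genes: Arnt -0.096 to 0.224, Epas1 -0.0405 to 0.1245, Egln3 -0.034 to 0.096, Hif1an -0.0275 to 0.2, Plod1 -0.03 to 0.3775, Stc1 -0.093 to 0.087, Vldlr -0.2125 to 0.008, Ppp1r3c -0.4465 to 0.111 and Tfrc -0.4375 to 0.04. Egln2, at 0.00 with all tumors, lay on either side of 0, at -0.062 to 0.082. The cause of these changes was not tested.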
